A study of Mus musculus with 96 samples.

Results

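Liver macrophages of fasted mice were compared at 8 h and at 3 h after food was withdrawn. Open chromatin was mapped by ATAC-seq, in which a transposase cuts accessible DNA and the reads in a peak reflect the cuts made there. The comparison was taken by its labels, 4 mice fasted for 8 h against 4 mice fasted for 3 h, which are 8 of the 32 macrophage mice and of the 64 mice in all. Fasting began at ZT12, when the lights go off, so that 3 h of fasting falls at ZT15 and 8 h at ZT20. The change was read beside that of 8 other mice, 4 taken at each of these times with food ad libitum. All were female MAC-INTACT mice, whose macrophage nuclei carry a tag by which they are captured on beads. The promoter that drives the tag and the age of the mice were not given in the sources used here. Mice at 16 h and 24 h, fasted and fed, served to estimate the spread and to show the later course. Their libraries form other sets than those of the mice at 3 h and 8 h. A change from 8 h to 16 h or 24 h therefore cannot be told apart from a difference between sets.

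Kupffer cells, the resident macrophages of the liver, clear particles, dying cells and iron from the blood that comes from the gut, and respond to bacterial products and to lipids. Like other cells they hold a circadian clock. In it Clock and Arntl (BMAL1) bind E-box letters and switch on the Per and Cry genes, whose products repress Clock and Arntl in turn. They also switch on the nuclear receptors Nr1d1 and Nr1d2 (REV-ERB), which repress Arntl, and the output factors Dbp and Tef, which bind D-box letters at other genes. Food is a strong time cue for clocks in the liver, and mice eat mostly in the dark.

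Of 30170 peaks, 7 passed the test between 8 h and 3 h in fasted mice, 5 lower and 2 higher at 8 h. A peak passed when its Benjamini-Hochberg adjusted p in limma was under 0.05. The lower ones make up 0.0166% of all peaks and the higher ones 0.00663%. Lower were 2 peaks at Dbp, 1 at Nr1d1, the promoter peak of Ccnd1 and a peak upstream of Rph3al. Higher were the peaks at the starts of Banp and Uspl1. In each of the 7 the 4 mice at 8 h did not overlap the 4 at 3 h, which held for 4.11% of all peaks in the lower and 1.73% in the higher direction. All 7 had an estimate of the same sign in fed mice, and the share of all peaks with the same sign was not computed. At 5 of the 7 the fed mice did not overlap either. That held for 1.64% of all peaks in the lower and 4.49% in the higher direction in fed mice. Levels are normalized reads per peak of 200 bases, and a peak is named by the nearest transcription start site (TSS), which does not show that it acts on that gene. Log2 fold changes are of 8 h over 3 h, carry an offset of 2 normalized reads and are given ± SE. More nuclei open at a site and a wider opening in each nucleus cannot be told apart in such samples.

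Promoter windows of 3 clock genes are shown: Dbp, whose promoter peak passed, and Ciart and Per3, whose peaks hold clock motifs. They are from RefSeq (GRCm38.p6, whose coordinates are those of mm10), 300 bases long, and run 5′ to 3′ on the gene's own strand across its start. Capitals mark an E-box, CACGTG, or a D-box, TTATGTAA, searched on both strands. The Dbp window (chr7:45704997-45705296, plus strand) shares 169 bases with the Dbp peak centred 19 bases before the start and holds neither motif, so it has no capitals. The Ciart window (chr3:95882179-95882478, minus strand) shares 195 bases with the Ciart promoter peak and holds 3 E-boxes, all inside that peak. The Per3 window (chr4:151044616-151044915, minus strand) shares 96 bases with the Per3 peak centred 255 bases before the start and holds 2 D-boxes. Of these, 1 lies inside that peak and the other inside the Per3 peak centred 63 bases before the start.
Dbp promoter: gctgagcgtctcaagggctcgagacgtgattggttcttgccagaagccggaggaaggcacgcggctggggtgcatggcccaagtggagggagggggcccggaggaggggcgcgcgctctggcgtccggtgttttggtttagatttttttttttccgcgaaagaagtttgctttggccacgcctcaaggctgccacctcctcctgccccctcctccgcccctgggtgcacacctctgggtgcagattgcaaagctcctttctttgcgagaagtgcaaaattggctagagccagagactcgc
Ciart promoter: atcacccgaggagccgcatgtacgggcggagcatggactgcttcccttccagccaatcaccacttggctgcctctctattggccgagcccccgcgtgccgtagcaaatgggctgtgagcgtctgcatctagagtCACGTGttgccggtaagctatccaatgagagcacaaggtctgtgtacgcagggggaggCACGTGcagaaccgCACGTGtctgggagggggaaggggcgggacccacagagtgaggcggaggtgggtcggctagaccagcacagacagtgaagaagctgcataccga
Per3 promoter: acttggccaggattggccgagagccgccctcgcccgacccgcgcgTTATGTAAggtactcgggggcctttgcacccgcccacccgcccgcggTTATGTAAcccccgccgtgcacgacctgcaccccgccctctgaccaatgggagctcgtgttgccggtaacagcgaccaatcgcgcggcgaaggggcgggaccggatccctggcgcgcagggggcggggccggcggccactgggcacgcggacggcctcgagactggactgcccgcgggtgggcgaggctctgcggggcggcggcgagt
An E-box of these letters stands in 7.15% of all 32851 windows and a D-box in 0.938%. Among the 25 windows of genes on the clock list, 6 hold the E-box, at Bhlhe41, Ciart, Cry1, Per1 and Tef, and 1 holds the D-box, at Per3. The peak nearest to the start had a log2 fold change in fasted mice of 0.11 at Cry1, -0.06 at Per1 and -0.03 at Tef, beside -0.41 at Ciart. Whether the E-boxes of Cry1, Per1 and Tef lie inside those peaks was not looked up. A match says only that the letters are there.

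The smallest p was in the first intron of Nr1d1, the clock repressor that binds haem (chr11:98773686-98773886, mm10, 1591 bases past the start). At 3 h the 4 fasted mice had 159, 164, 146 and 147 normalized reads there, and at 8 h 83.6, 100.5, 88.7 and 111. All mice at 8 h lay below all at 3 h. The log2 fold change was -0.68 ± 0.10 (95% interval -0.88 to -0.47, adjusted p = 0.000696, limma), which is 1.60-fold lower. Fed mice had 130.2, 188, 148 and 166 at 3 h and 87.5, 111, 84.1 and 73.8 at 8 h, again without overlap, with a change of -0.82 ± 0.10 (adjusted p = 4.96e-06). The difference between the fasted and the fed change was 0.14 (95% interval -0.15 to 0.43). In fasted mice the peak stood at 191 ± 15.8 at 16 h and 211 ± 25.1 at 24 h (SD, n = 4), above its level at 8 h but in other sets of libraries.

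Dbp, an output factor of the clock, fell at 2 peaks. At the promoter peak (chr7:45705128-45705328) the fasted mice had 58.4, 71.9, 61.9 and 67.4 normalized reads at 3 h and 30.2, 42.2, 36.3 and 30.8 at 8 h. In the first intron (chr7:45705997-45706197, 850 bases past the start) they had 97.7, 79.0, 62.6 and 71.9 at 3 h and 33.7, 46.4, 36.3 and 35.1 at 8 h. At neither peak did a mouse at 8 h reach the lowest mouse at 3 h. The log2 fold change was -0.87 ± 0.18 at the promoter (adjusted p = 0.0425) and -0.99 ± 0.19 in the intron (adjusted p = 0.0120), or 1.82-fold and 1.99-fold lower. In fed mice both peaks fell as well, the promoter by 1.06 and the intron by 1.01 on the log2 scale (adjusted p = 0.00332 and 0.0151). The difference of the fasted and fed changes was 0.19 at the promoter (95% interval -0.31 to 0.69) and 0.01 in the intron (-0.51 to 0.54). At 24 h the intron peak stood at 82.3 ± 14.6 in fasted and 121 ± 3.93 in fed mice (SD, n = 4).

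Ccnd1 encodes cyclin D1, which carries cells from rest into the division cycle. At its promoter peak (chr7:144939741-144939941, 84 bases past the start) the fasted mice had 72.2, 74.0, 63.3 and 74.2 normalized reads at 3 h and 52.0, 43.6, 37.0 and 37.7 at 8 h. The lowest mouse at 3 h lay above the highest at 8 h, and the log2 fold change was -0.72 ± 0.13 (adjusted p = 0.0120), or 1.65-fold lower. Fed mice had 89.7, 83.0, 84.0 and 84.8 at 3 h and 80.6, 86.6, 69.97 and 70.2 at 8 h, in overlap, and their change of -0.15 ± 0.13 did not pass. The difference between the fasted and fed change was -0.57 (95% interval -0.94 to -0.19), with an unadjusted p of 0.00371 and an adjusted p of 0.478 in limma, so it was not called. Against fed mice of the same time, fasted mice differed there by -0.26 ± 0.13 at 3 h (adjusted p = 0.519) and by -0.83 ± 0.13 at 8 h (adjusted p = 4.11e-05).

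Rph3al, an effector of Rab proteins in secretion, has the peak of lowest level among the 5 lower ones, 10053 bases before its start (chr11:75935844-75936044, intergenic). The fasted mice had 32.9, 27.1, 28.5 and 16.8 normalized reads at 3 h and 10.5, 10.5, 10.5 and 14.5 at 8 h. The groups are apart by few reads, with the lowest mouse at 3 h near the highest at 8 h. The change was -1.04 ± 0.21 (adjusted p = 0.0347), or 2.06-fold lower. Fed mice had 31.9, 26.9, 25.8 and 35.1 at 3 h and 21.2, 15.04, 18.3 and 21.6 at 8 h, also apart, but their estimate of -0.60 ± 0.21 did not pass.

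Both higher peaks lie at starts of genes for nuclear proteins. Banp encodes a DNA-binding factor of CpG-rich promoters, and its peak lies 161 bases past the start (chr8:121950553-121950753, annotated as intron 1). The fasted mice had 98.7, 109, 104 and 114 normalized reads at 3 h and 141, 176, 173 and 183 at 8 h, a change of 0.65 ± 0.11 (adjusted p = 0.00507), or 1.56-fold higher. Uspl1 encodes a protease that removes SUMO, and its promoter peak lies 215 bases before the start (chr5:149184245-149184445). There the fasted mice had 179, 204, 193 and 205 at 3 h and 258, 267, 253 and 252 at 8 h, a change of 0.40 ± 0.07 (adjusted p = 0.0120), or 1.32-fold higher. At neither peak did a mouse at 8 h come down to a mouse at 3 h. Fed mice had estimates of 0.31 ± 0.11 at Banp, in overlap, and of 0.21 ± 0.07 at Uspl1, without overlap, neither of which passed. At 16 h, fasted mice stood at 206 ± 31.5 at Banp and 283 ± 29.4 at Uspl1 (SD, n = 4).

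**Figure D1:**
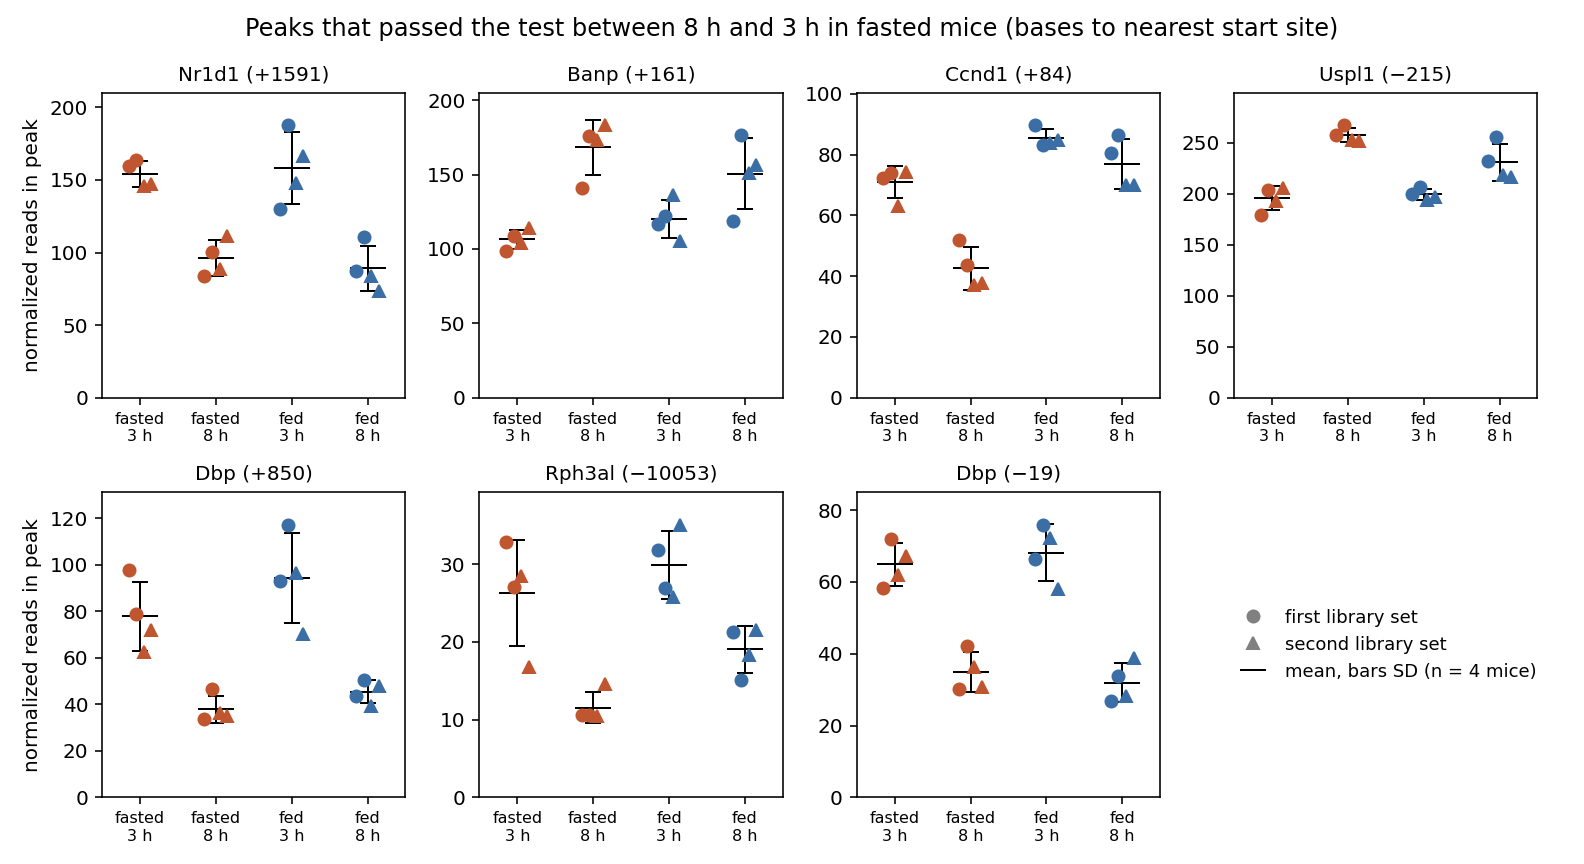
Normalized reads (linear axis from 0) of each mouse in the 7 peaks that passed in fasted mice, at 3 h and 8 h, fasted in orange and fed in blue; circles and triangles are the library sets, and bars are mean and SD of 4 mice. In every panel the fasted mice at 8 h are separate from those at 3 h, and the fed mice are too at Nr1d1, both Dbp peaks, Rph3al and Uspl1.

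How many peaks pass depends on which mice are in the fit. With the 16 mice at 3 h and 8 h alone, 21 peaks were higher and 86 lower in fasted mice, the 7 peaks among them. Mice at 3 h and 8 h came in 2 sets of consecutive library numbers, and each of their fasted and fed groups has 2 mice in either set. Those at 16 h and 24 h came in other sets. The first set alone gave 2 higher and 4 lower peaks and the second 100 higher and 930 lower, with 4 peaks called in both. Of the 32 mice, leaving out the fasted 8 h replicate 1 gave 12 higher and 39 lower, replicate 2 gave 2 and 13, and replicate 3 gave 1 and 1. Leaving out the fasted 3 h replicate 1 gave 0 and 1, replicate 2 2 and 2, replicate 3 1 and 3, and replicate 4 2 and 3. Without the fed 8 h replicate 1 the split was 2 and 11. Of the 7 calls, the Nr1d1 peak alone was kept without the fasted 3 h replicate 1, and Nr1d1 and Banp without the fasted 8 h replicate 3. Ccnd1, both Dbp peaks and Rph3al were lost without the fasted 3 h replicate 2, and Rph3al, Uspl1 and the Dbp promoter without replicate 3. Ccnd1 and the Dbp promoter were lost without the fasted 3 h replicate 4, and Ccnd1 and both Dbp peaks without the fasted 8 h replicate 4. The Dbp promoter was also lost without the fasted 8 h replicate 1, the fed 3 h replicate 3 or the fed 8 h replicate 2, and Rph3al without the fasted 8 h replicate 2. Centring each library on its median gave 6 higher and 3 lower, and quantile normalization 8 and 7. The Nr1d1 intron peak passed under each of the 27 alternatives run, with changes from -0.80 to -0.55 and adjusted p from 0.000186 to 0.0464, and the Dbp promoter peak under 13 of 27. Banp passed under 24, Uspl1 under 23, the Dbp intron peak under 22 and Ccnd1 under 20 of 27, and Rph3al under 19 of 26.

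Other clock genes were read through a list of 22 genes, of which 16 had 53 peaks within 50 kb. The peaks described were chosen in fed mice, by an unadjusted p under 0.01 between 8 h and 3 h, 11 peaks at 6 genes. The fed and fasted tests share 1 estimate of the spread at each peak, so the choice is not fully apart from the fasted mice. All 11 had a negative estimate in fasted mice, from -0.99 to -0.07. At an unadjusted p under 0.05 in limma, the whole list had 3 higher peaks in fasted and 0 in fed mice. The choice in fed mice thus left rising peaks out. Of the 11, 3 passed, the calls at Nr1d1 and Dbp described above, beside 0.0166% of all peaks lower. At 7 of the 11 the fasted mice did not overlap, beside 4.11%. Peaks of 1 gene lie near each other and are not independent.

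Among the repressors, Nr1d1 had 2 further peaks upstream. The one 8130 bases before the start held 155, 204, 163 and 173 normalized reads in fasted mice at 3 h and 139.8, 139, 129 and 137 at 8 h, apart but not called (-0.34 ± 0.09, adjusted p = 0.137). Its neighbour 7883 bases before the start went from 39.7 ± 2.35 to 30.1 ± 0.603 (SD, n = 4), with an estimate of -0.37 ± 0.16. That neighbour passed in fed mice, at -0.76 ± 0.16 (adjusted p = 0.0442). Ciart, a repressor of Clock and Arntl, had 189, 199, 185 and 189 at the promoter shown above at 3 h and 114, 130.0, 158 and 177 at 8 h in fasted mice. No mouse at 8 h reached the mice at 3 h, but the estimate was -0.67 in the first library set and -0.16 in the second, and the pooled one of -0.41 ± 0.10 had an adjusted p of 0.0868. It passed with the library set as a block (limma adjusted p = 0.0347), in the 16-mouse fit (0.0162), in the first set alone (0.00468) and without the fasted 8 h replicate 4 (0.0318), of 27 alternatives with adjusted p from 0.00468 to 0.404. In fed mice it was -0.37 ± 0.10. In the first intron of Per2, a core repressor, the fasted mice had 43.5, 44.1, 52.1 and 39.8 at 3 h and 30.2, 27.4, 22.4 and 42.8 at 8 h. There the highest mouse at 8 h lay above the lowest at 3 h, and the estimate was -0.55 ± 0.19 (adjusted p = 0.328).

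Of the output factors beside Dbp, Tef had a peak 390 bases past a start with 141, 153, 131 and 143 normalized reads in fasted mice at 3 h and 106, 109.6, 112 and 102 at 8 h. These mice did not overlap, and the estimate of -0.40 ± 0.11 (adjusted p = 0.175) stood beside -0.36 ± 0.11 in fed mice. The third Dbp peak, 833 bases before the start, stood at -0.30 ± 0.17 in fasted and -0.49 ± 0.17 in fed mice. The Per3 peak 255 bases before the start, which holds 1 D-box, had 246, 231, 199 and 217 in fasted mice at 3 h. At 8 h it had 207, 219.9, 205 and 173, in overlap, an estimate of -0.15 ± 0.08, beside -0.32 ± 0.08 in fed mice. The Per3 peak 63 bases before the start, which holds the other D-box, stood at 0.10 ± 0.07 in fasted and -0.11 ± 0.07 in fed mice. None of these peaks passed in either state, although Tef passed in fasted mice in the 16-mouse fit (adjusted p = 0.0367, limma).

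The peaks nearest to the start of each clock gene had estimates near 0 outside Dbp and Ciart. Over the 14 other genes the fasted estimate ran from -0.08 to 0.11 and the fed one from -0.20 to 0.16, and 0 of the 14 passed in fasted mice. Arntl, the activator, stood at 0.04 ± 0.11 and Clock, its partner, at -0.02 ± 0.12. Cry1 and Cry2, the repressors that pair with Per proteins, stood at 0.11 ± 0.10 and 0.01 ± 0.06. Nr1d1 itself stood at -0.07 ± 0.07 at its start, beside -0.68 in its first intron. Per1, a core repressor, had 243, 256, 244 and 259 normalized reads in fasted mice at 3 h and 205, 237, 247 and 277 at 8 h, in overlap (-0.06 ± 0.08). It was above the fed mice at both times, by 0.36 ± 0.08 at 3 h (adjusted p = 0.00612) and by 0.30 ± 0.08 at 8 h (adjusted p = 0.0180).

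**Figure D2:**
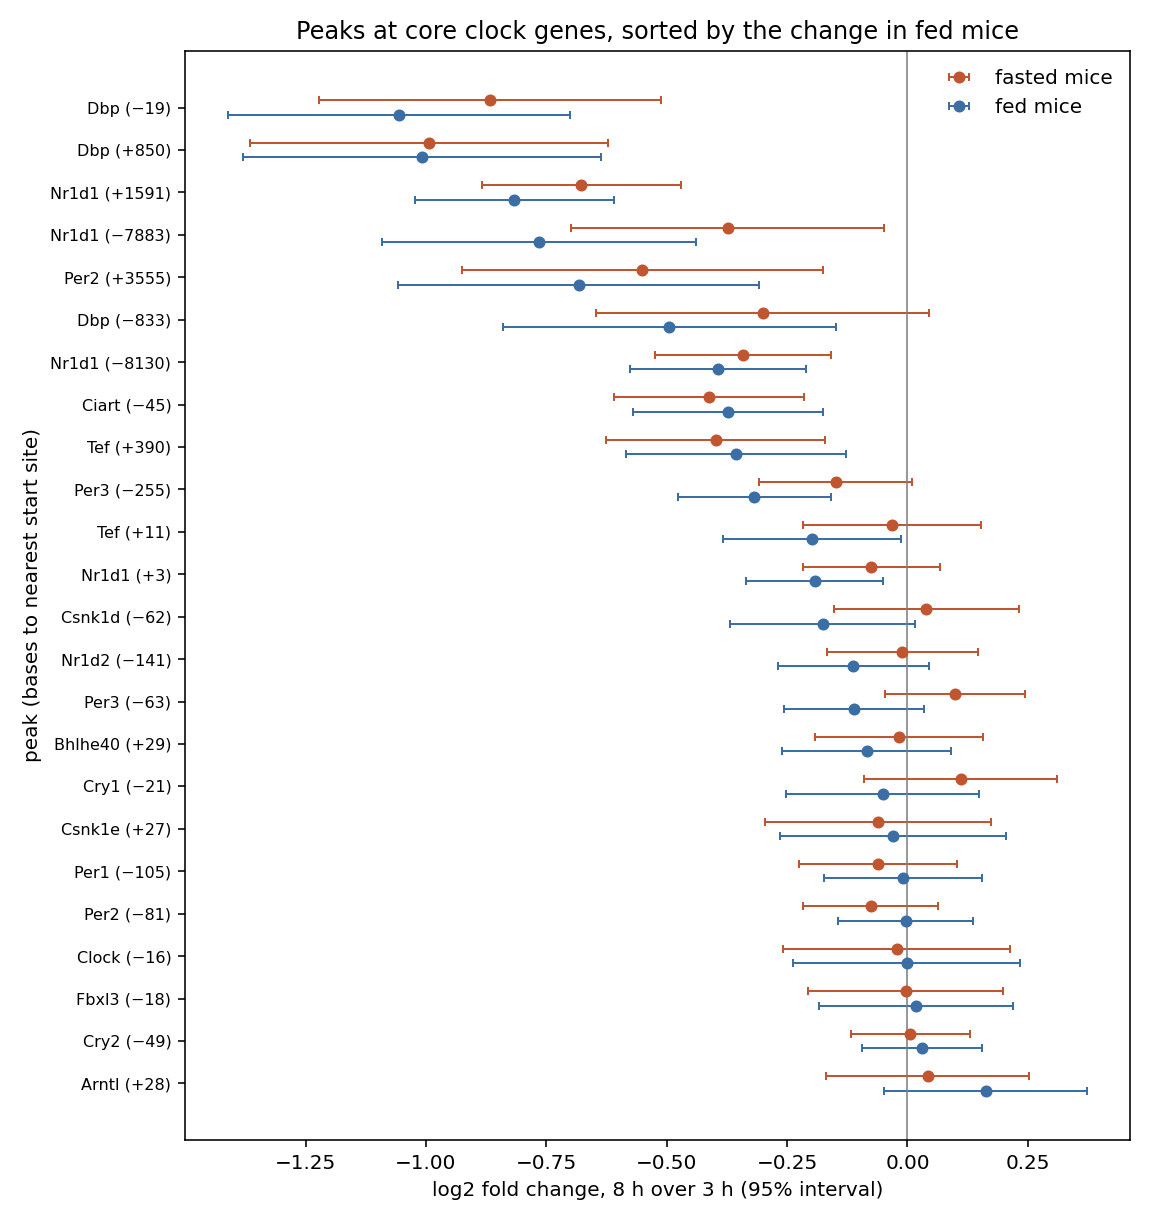
Log2 fold change of 8 h over 3 h (points) with 95% intervals (bars) at peaks of clock genes, in fasted (orange) and fed mice (blue), sorted by the fed change; numbers after a name are bases from the TSS. The 11 peaks chosen in fed mice have points below 0 in both states, and the promoter peaks of Arntl, Clock, Cry1 and Cry2 lie near 0.

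In fed mice of the same times 6 peaks were higher (0.0199% of all) and 7 lower (0.0232%) at 8 h, and 3 of these 13, at Nr1d1 and Dbp, also passed in fasted mice. The fasted and fed comparisons share no mice, but both tests use 1 pooled estimate of the spread at each peak. Of the 13, 11 had the same sign in fasted mice, a share that was not computed over all peaks. Leaving out any 1 of the 8 fed mice gave 1 to 7 fed calls, and the 16-mouse fit gave 79. Pla2g7, which encodes an enzyme that breaks down platelet-activating factor, rose in fed mice from 13.4 ± 4.35 to 26.9 ± 4.94 at its promoter (SD, n = 4, log2 fold change 0.93 ± 0.19, adjusted p = 0.0343). Fasted mice had 36.1, 31.3, 38.9 and 47.5 there at 3 h and 47.1, 52.7, 54.5 and 40.2 at 8 h, in overlap, and lay above the fed mice by 1.42 ± 0.19 at 3 h (adjusted p = 5.35e-07). A peak 123272 bases before Mylip, a ubiquitin ligase, rose in fed mice by 1.06 ± 0.20 (adjusted p = 0.0190). In fasted mice it held 15.9, 16.4, 18.8 and 12.2 at 3 h and 24.6, 34.4, 21.7 and 30.8 at 8 h, apart but not called (0.74 ± 0.20, adjusted p = 0.147).

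Tspan4, a tetraspanin, fell at its promoter in fed mice by 0.59 on the log2 scale (adjusted p = 0.0190) and stood at -0.38 ± 0.11 in fasted mice (adjusted p = 0.206). A second Tspan4 peak, 809 bases past the start, held 83.9, 88.3, 74.4 and 68.1 normalized reads in fasted mice at 3 h and 47.1, 56.2, 41.9 and 50.5 at 8 h. Its groups did not overlap, and with -0.66 ± 0.14 and an adjusted p of 0.0510 it lay just outside the threshold. Of the other fed calls, a peak near Ly6c2, a surface protein of monocytes, fell by 0.77 in fed mice and stood at -0.06 ± 0.16 in fasted mice. A peak near Chp2, a calcium-binding protein, rose by 0.79 in fed mice and stood at -0.02 ± 0.16 in fasted mice. Dda1, a part of a ubiquitin ligase, fell in fed mice from 41.8 ± 6.03 to 23.4 ± 3.43 near its start (adjusted p = 0.0343), while fasted mice had 34.2 ± 3.30 and 39.3 ± 3.21 (SD, n = 4). The remaining 3 fed calls were higher and stood at 0.30 (Pik3c3), 0.27 (F630040K05Rik) and 0.34 (AI467606) in fasted mice.

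No peak passed the test of the difference between the fasted and the fed change in limma (0 of 30170, 0%, smallest adjusted p = 0.462), although 2611 had an unadjusted p under 0.05. The same test gave 1 peak in the 16-mouse fit and 185 in the second library set alone. At the median peak the unadjusted 95% interval of the difference reached 0.401 on the log2 scale to either side. A call after adjustment over all peaks needs a larger difference than this, the size of which was not computed. For 94% of peaks the interval lay within 1 log2 unit of 0. The smallest p was at Dda1, with a difference of 0.98 (95% interval 0.52 to 1.43, unadjusted p = 7.72e-05). Skp2, a ubiquitin ligase subunit of the cell cycle, followed with -0.63. Its intron peak held 98.7, 94.7, 98.7 and 108 in fasted mice at 3 h and 89.9, 82.2, 78.2 and 77.9 at 8 h, against 97.5 ± 8.98 and 125 ± 14.8 in fed mice (SD, n = 4). Ms4a6b, a membrane protein of the MS4A family, stood at -0.68 and Lims1, an adaptor of cell adhesion, at -0.81. At these 3 peaks the fasted estimate was below and the fed one above 0, and none of the differences was called.

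**Figure D3:**
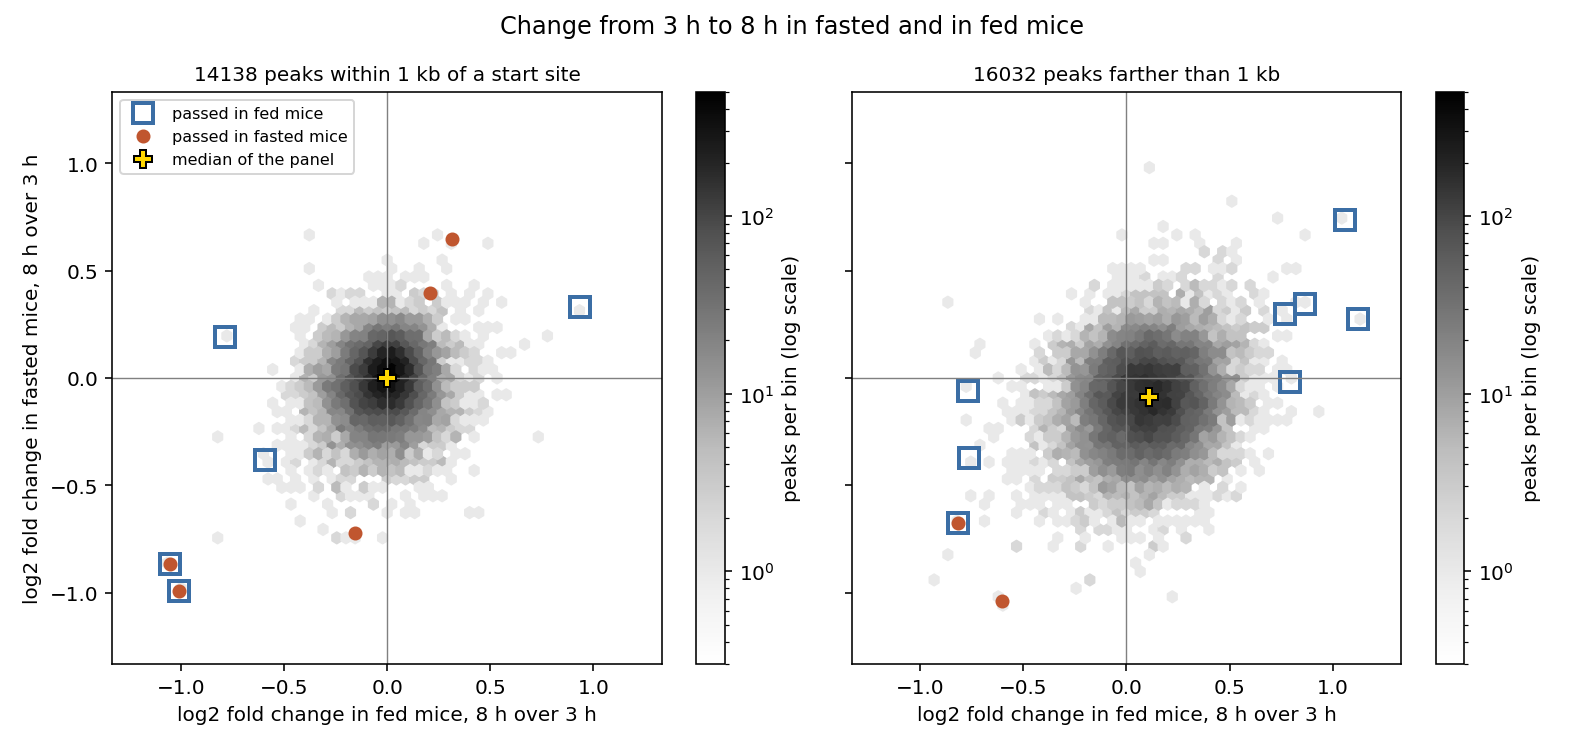
Log2 fold change of 8 h over 3 h in fasted (vertical) against fed mice (horizontal) for all 30170 peaks, split by distance to the TSS; shading counts peaks on a log scale, circles passed in fasted and squares in fed mice, and the cross is the panel's median. Peaks farther than 1 kb centre on a fed median of 0.11 and a fasted median of -0.09, and nearer peaks centre on 0.

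Distal peaks had medians of opposite sign in fasted and fed mice, both small. Among the 16032 peaks farther than 1 kb from a TSS, the median change was -0.09 in fasted and 0.11 in fed mice, and among the 14138 nearer ones it was 0.00 in both. With libraries centred on their medians the distal medians were -0.02 in fasted and 0.04 in fed mice, and with quantile normalization -0.02 and 0.05, of the same sign but nearer to 0. The promoter medians were then 0.07 in fasted and -0.07 in fed mice with median centring, and 0.02 and -0.03 with quantile normalization, so that which class departs from 0 depends on the scaling. Of the distal peaks, 5.21% were lower and 0.792% higher in fasted mice at 8 h without overlap, and 1.01% lower and 6.66% higher in fed mice. Of the promoter peaks, 2.86% were lower and 2.8% higher in fasted, and 2.36% lower and 2.03% higher in fed mice. Over all peaks, the fed shares were 4.49% higher and 1.64% lower. Across distal peaks the fasted and fed changes had a Pearson r of 0.159 and across promoter peaks 0.127, a description over peaks that share their libraries, depth and base composition.

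The share of normalized reads that fell in promoter peaks was 66.2, 66.0, 65.5 and 64.5% in fasted mice at 3 h and 65.6, 66.3, 68.7 and 66.7% at 8 h. In fed mice it was 67.5, 64.4, 66.6 and 65.9% at 3 h and 63.2, 64.4, 65.4 and 65.3% at 8 h. The times overlapped in both states. The share differed by 1.31 points between 8 h and 3 h in fasted mice (two-sided exact permutation p = 0.114) and by -1.53 points in fed mice (exact permutation p = 0.114), where 0.0286 is the smallest p that 4 against 4 allows. The difference of these changes was 2.85 points, with an exact permutation p of 0.0229, or 0.0686 after Benjamini-Hochberg adjustment over the 3 comparisons. Times were shuffled within each state without regard to the library set. That p therefore refers to no change in either state and does not test whether the changes are equal. The library sets did not share the fasted shift, since the median of distal peaks was 0.02 in the first and -0.19 in the second set, beside 0.16 and 0.06 in fed mice. On the first principal component of the 16 mice (27.3% of the variance), the fasted 8 h replicates 3 and 4, both of the second set, stood at 34.3 and 29.3, and the other fasted mice between 5.4 and 18. The part of the library set in the distal shift was not tested.

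**Figure D4:**
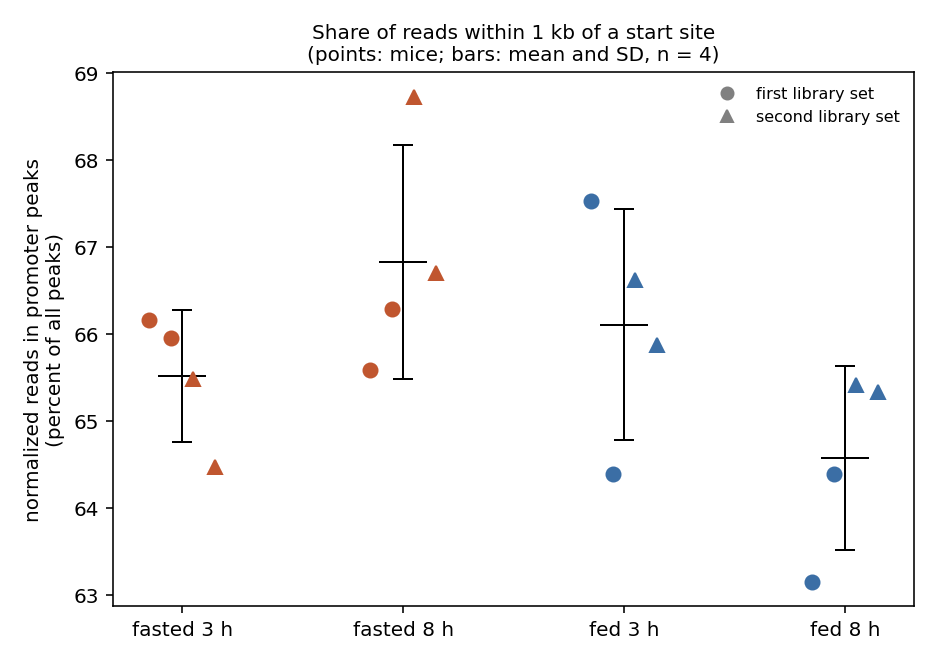
Percent of each mouse's normalized reads in peaks that lie within 1 kb of a TSS (the axis does not start at 0), by group, with mean and SD of 4 mice. Within either state the times overlap, and the highest mouse is the fasted 8 h replicate 3 at 68.7%.

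Sites that were more open in fasted than in fed mice at 24 h were mostly so at 3 h and 8 h too. They were chosen in other mice, though all tests share 1 estimate of the spread at each peak. The choice gave 99 peaks (0.328% of all) that passed at 24 h, at least 2-fold higher in fasted mice and without overlap. By the same rule 131 peaks (0.434%) were lower. At 3 h, 87 of the 99 passed as higher in fasted than in fed mice, against 1.68% of all peaks, and at 8 h 77, against 1.63%. Their median fasting effect was 1.38 log2 at 3 h, 1.10 at 8 h, 0.36 at 16 h and 1.25 at 24 h. Between 8 h and 3 h in fasted mice 0 of the 99 passed and 76 had a negative estimate, a share that was not computed over all distal peaks. The median was -0.18, beside -0.09 over all distal peaks, to which 96 of them belong. By library set this median was 0.13 in the first and -0.52 in the second, so that its direction was not shared. It was -0.11 with median centring and -0.12 with quantile normalization. In 5.05% of them the fasted mice were lower at 8 h without overlap, near the share over all distal peaks, 5.21%, and in 0 higher.

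Ddit4, a brake on mTOR signalling that stress and glucocorticoids induce, had such a site 13310 bases before its start (chr10:59964980-59965180, intergenic). The fasted mice had 55.2, 70.5, 90.4 and 110.2 normalized reads at 3 h and 82.9, 95.6, 78.9 and 89.0 at 8 h, in overlap, with an estimate of 0.13 ± 0.30. Fed mice had 14.96 ± 2.08 and 14.4 ± 6.53 (SD, n = 4), and every fasted mouse lay above every fed mouse. At 16 h the fasted mice stood at 29.4 ± 4.38 and at 24 h at 83.3 ± 13.9. A peak 17148 bases before Armc12 (chr17:28513613-28513813) held 44.6, 42.0, 68.8 and 66.6 in fasted mice at 3 h and 42.8, 63.2, 39.1 and 57.3 at 8 h, against 8.04 ± 2.77 and 10.4 ± 2.24 in fed mice. Its estimate in fasted mice was -0.12 ± 0.29.

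Ccl17, a chemokine for T cells, had 15.9, 11.4, 43.8 and 36.0 normalized reads in its first intron at 3 h and 14.8, 19.0, 13.3 and 27.4 at 8 h in fasted mice. The estimate of -0.35 ± 0.29 was 0.27 in the first and -0.98 in the second library set. Cblb, a ubiquitin ligase that dampens immune receptors, had 23.4, 21.4, 44.5 and 52.8 at 3 h and 10.5, 29.5, 13.3 and 25.7 at 8 h, an estimate of -0.79 ± 0.31 (adjusted p = 0.449), with -0.29 in the first and -1.30 in the second set. At both sites the 2 mice of the second set were the high ones at 3 h. Sgms1, which makes sphingomyelin, held 40.8 ± 15.2 at 3 h and 51.1 ± 12.0 at 8 h (SD, n = 4, estimate 0.36 ± 0.23), and Nrg4, a growth factor of the EGF family, 27.1 ± 13.1 and 27.4 ± 5.33. The fasted estimate was -0.53 at Ston1, -0.27 at Rgs2, -0.40 at Klhl38 and -0.73 at Ncoa2. Over these 10 sites, 1 per gene, it ran from -0.79 to 0.36.

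**Figure D5:**
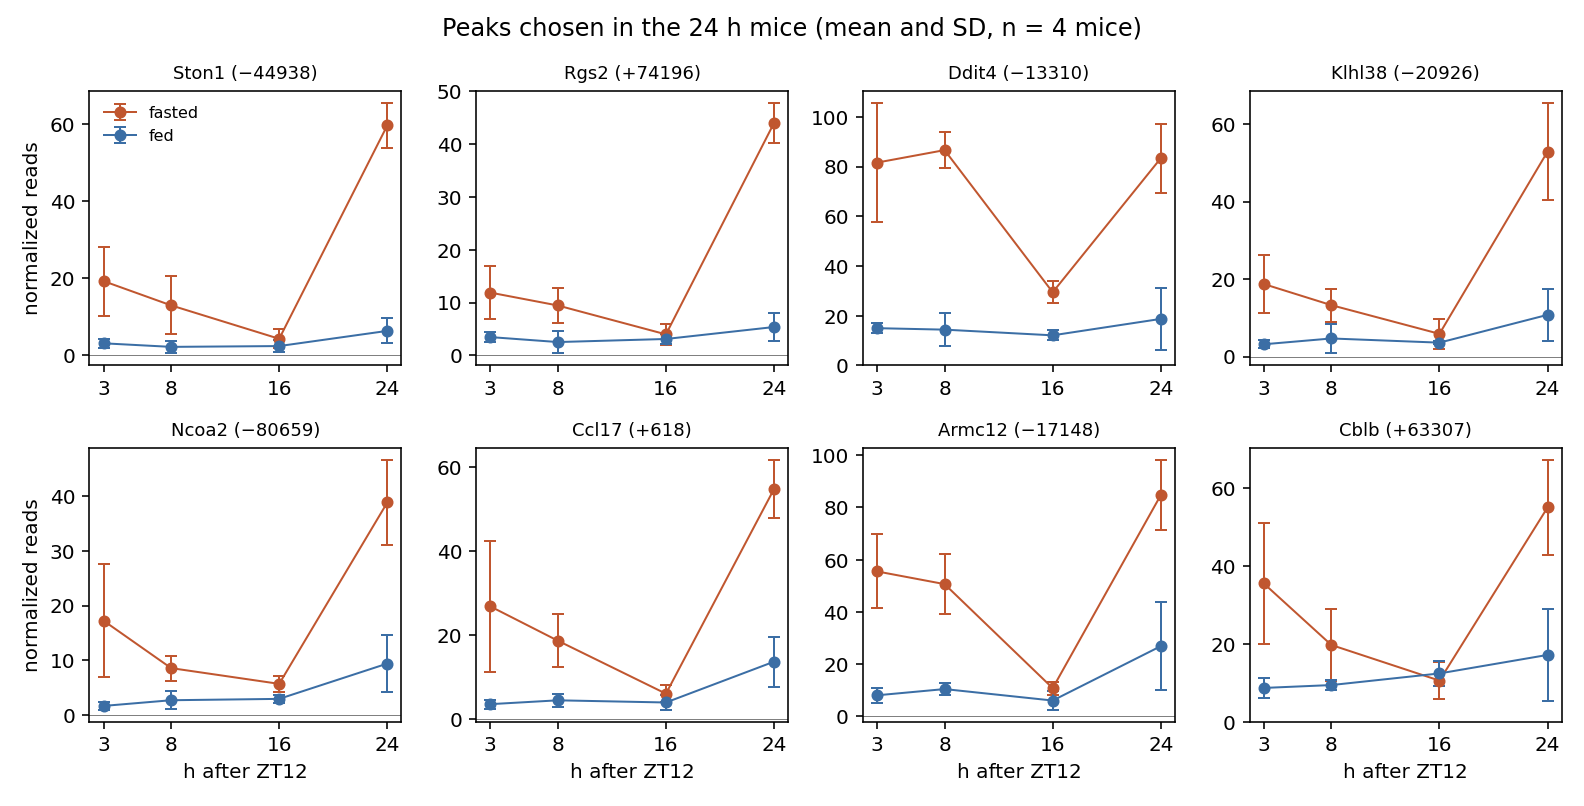
Normalized reads (mean and SD, n = 4 mice) at 8 sites chosen in the 24 h mice, against hours after ZT12, in fasted (orange) and fed mice (blue); numbers after a name are bases from the TSS. Fasted means lie above fed means at 3 h and 8 h in all 8, and the SD bars of fasted mice at 3 h and 8 h overlap in all 8. Fasted means are lower at 16 h than at 8 h in all 8. Sgms1 and Nrg4, not shown, were higher at 16 h (64.6 ± 33.5 and 36.2 ± 18.3) than at 8 h. Mice at 16 h and 24 h are of other library sets than those at 3 h and 8 h.

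Of the 131 sites that were lower in fasted mice at 24 h, 3 passed as lower than in fed mice at 3 h, against 0.139% of all peaks, and 56 at 8 h, against 4.96%. Their median fasting effect was -0.21 at 3 h, -0.53 at 8 h, -0.77 at 16 h and -1.08 at 24 h. Within the fasted mice 0 of the 131 passed from 3 h to 8 h and 107 were below 0, a share that was not computed over all distal peaks. Of the 131, 115 are distal. In 6.87% the fasted mice were lower at 8 h without overlap, beside 5.21% of all distal peaks, and in 0 higher. The median change was -0.17 in fasted and 0.15 in fed mice, beside -0.09 and 0.11 over all distal peaks. With median centring the medians of the 131 were -0.10 and 0.09, and with quantile normalization -0.06 and 0.09. By library set the fasted median was 0.00 in the first and -0.34 in the second. A site 36647 bases before Cbr4, a mitochondrial reductase, held 18.1, 17.8, 18.8 and 15.3 in fasted mice at 3 h and 14.05, 15.5, 14.7 and 8.56 at 8 h. In fed mice it had 22.2 ± 0.976 and 30.7 ± 4.03 (SD, n = 4). The fasted estimate of -0.38 ± 0.21 was not called. At the sites named for Dynlrb2, Ect2, Erich5 and Thsd4 it was -0.22, 0.01, -0.12 and -0.25. At those named for Creb1, Kctd3 and Sumf1 it was -0.36, -0.17 and -0.24, so that the 8 sites ran from -0.38 to 0.01.

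Of 19 pathway lists, the clock list held 3 lower peaks that passed in fasted mice, of 53, and the list of cell cycle and growth genes 1, at Ccnd1, of 66, and the other lists held 0, where 0.0166% of all peaks passed as lower. They are described by the number of peaks with an unadjusted p under 0.05, higher and lower at 8 h, and by the median change. Over all peaks these shares were 2.23% higher and 6.42% lower in fasted mice, with a median of -0.04. In fed mice they were 6.19% higher and 1.88% lower, with a median of 0.04. The clock list had 3 higher and 11 lower in fasted mice and 0 higher and 14 lower in fed mice, with medians of -0.03 and -0.07.

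Among the inflammatory lists, NF-kB and inflammatory response genes had 0 higher and 8 lower of 115 peaks in fasted mice (median -0.04, fed 0.10). Toll-like receptor genes had 0 and 4 of 60 (-0.06, fed 0.06), and interferon response genes 2 and 5 of 111 (-0.04, fed 0.09). Chemokine genes had 0 and 9 of 65 (-0.12, fed 0.11), and antigen presentation genes 0 and 2 of 49 (-0.10, fed 0.08). Distal peaks made up 66.1, 61.7, 62.2, 83.1 and 55.1% of these lists, in the order given, and 53.1% of all peaks. As a class distal peaks had medians of -0.09 in fasted and 0.11 in fed mice. The fasted one was 0.02 in the first library set and -0.19 in the second. The peak of smallest p in the toll-like list lay in Irak2, a kinase that relays interleukin-1 and toll-like receptor signals. It held 69.0, 76.2, 81.4 and 69.6 in fasted mice at 3 h and 58.3, 47.8, 46.8 and 42.8 at 8 h, apart but not called (-0.58 ± 0.14, adjusted p = 0.103), beside 0.03 ± 0.14 in fed mice. In the 16-mouse fit it passed (adjusted p = 0.0184, limma). In Cd86, a co-stimulator of T cells, a peak had 64.7 ± 1.501 and 48.1 ± 8.25 in fasted and 60.7 ± 4.87 and 71.3 ± 2.84 in fed mice (SD, n = 4). Its fasted estimate was -0.43 ± 0.14 (adjusted p = 0.253).

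Glucocorticoid response genes had 3 higher and 10 lower of 139 peaks (median -0.07, fed 0.06), and their median fasting effect was 0.23 at 3 h and 0.11 at 8 h. The peak of smallest p lay in an intron of Fkbp5, a co-chaperone that glucocorticoids induce, and held 49.9, 46.3, 47.3 and 52.0 in fasted mice at 3 h and 25.3, 26.7, 25.8 and 44.5 at 8 h. The groups did not overlap, with 3 mice at 8 h close together and replicate 4 higher, and the estimate was -0.68 ± 0.19 (adjusted p = 0.160). Fed mice had 17.4 ± 2.71 and 21.9 ± 5.16 there (SD, n = 4), and the fasting effect was 1.40 ± 0.19 at 3 h (adjusted p = 6.32e-07) and 0.44 ± 0.19 at 8 h (adjusted p = 0.149). The difference of the changes, -0.96, had an unadjusted p of 0.000754 in limma and was not called. Immediate early and AP-1 genes had 7 higher and 9 lower of 154 peaks (median -0.01, fed 0.03). A peak 11611 bases before Fosb, an AP-1 subunit, held 54.2, 66.2, 59.1 and 68.9 at 3 h and 106, 109, 105 and 122 at 8 h. It was apart and just short of the threshold (0.81 ± 0.17, adjusted p = 0.0527), beside 0.53 ± 0.17 in fed mice.

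Of the metabolic lists, fatty acid oxidation and ketone genes had 1 higher and 0 lower of 46 peaks (median 0.01, fed 0.05). Insulin signalling and FOXO target genes had 2 and 2 of 74 (-0.01, fed 0.00), and cholesterol synthesis genes 1 and 2 of 46 (-0.02, fed -0.02). Lipid handling and LXR target genes had 7 and 7 of 135 (-0.03, fed 0.09), glycolysis and hypoxia genes 0 and 3 of 74 (-0.06, fed 0.00), and iron and haem genes 2 and 4 of 91 (-0.04, fed 0.05).

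Autophagy and lysosome genes had 4 higher and 4 lower of 110 peaks (median -0.04, fed 0.04). Ctsl, a lysosomal protease, held 225, 221, 217 and 212 near its start at 3 h and 251, 254, 265 and 271 at 8 h in fasted mice, apart and not called (0.25 ± 0.06, adjusted p = 0.125). Integrated stress response and amino acid transport genes had 1 and 0 of 38 (0.00, fed 0.02), and heat shock and protein folding genes 1 and 9 of 47 (-0.06, fed -0.02). The smallest p among the latter was at the promoter of Hsp90aa1, a chaperone, with 250.1 ± 4.37 and 306 ± 17.5 (SD, n = 4, estimate 0.29 ± 0.08, limma adjusted p = 0.149). It was the 1 higher peak of that list, of which 12.8% were lower at 8 h without overlap, beside 4.11% of all peaks. Cell cycle and growth genes had 2 and 9 of 66 (-0.06, fed 0.03), and phagocytosis and cell clearance genes 4 and 9 of 126 (-0.11, fed 0.10), 75.4% of them distal. Among the latter, a peak in the last exon of C1qa, a complement subunit made by macrophages, held 69.0, 81.9, 75.8 and 91.1 at 3 h and 52.7, 59.0, 46.1 and 38.5 at 8 h. It was apart and just short of the threshold (-0.68 ± 0.14, adjusted p = 0.0510), beside -0.03 ± 0.14 in fed mice.

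The 8 peaks next by p, chosen after their values were seen, had adjusted p from 0.0510 to 0.0527. Beside Tspan4, C1qa and Fosb these lay near Capza2 (-0.68 ± 0.14), which caps actin filaments, Arhgap39 (-0.70 ± 0.15), which switches off small GTPases, and Rhoc (-0.52 ± 0.11), a small GTPase. The others were near Slc9a3r1 (-0.78 ± 0.17), a scaffold of membrane proteins, and Zfp217 (-0.94 ± 0.20), a zinc finger protein. Of the 8, 7 were lower at 8 h. The fasted mice did not overlap at any of the 8, beside 4.11% of all peaks lower and 1.73% higher. A choice by small p in the same mice favours such separation, so it is no further support. On these same mice, all 8 passed with the library set as a block, with an offset of 8 and in the 16-mouse fit. In that fit Fosb had an adjusted p of 2.01e-05 (limma) in fasted and 0.0130 in fed mice. C1qa had 0.00357 there and Zfp217, the highest of the 8, 0.0162.

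The macrophage markers were open at both times. All 20 macrophage and Kupffer cell marker genes had peaks, 113 in all, with 0 passing and a summed level of 8000 to 8440 in fasted mice at 3 h and 7224 to 8306 at 8 h. In fed mice it was 7492 to 8792 and 8134 to 8917. The list had 6 higher and 6 lower peaks at an unadjusted p under 0.05 in fasted mice and a median change of -0.09, beside 0.07 in fed mice. C1qa, described above at -0.68, is on it. Clec4f, a Kupffer cell lectin, stood at -0.08 ± 0.12, Timd4, a receptor for dying cells, at -0.15 ± 0.17 and Spi1, the lineage factor of macrophages, at 0.05 ± 0.12. Vsig4, a complement receptor, stood at -0.37 ± 0.17 and Marco, a scavenger receptor, at -0.23 ± 0.19, neither called. Of 18 hepatocyte markers 1, Ttr, had peaks, and Alb, Apoa1 and Hnf4a were among those with none within 50 kb. Its summed level was 107 to 119 at 3 h and 105 to 128 at 8 h. Of 12 sinusoidal endothelial markers 7 had 14 peaks, of which 0 passed. Their summed level was 644 to 684 in fasted mice at 3 h and 567 to 603 at 8 h, without overlap, and 574 to 683 and 611 to 739 in fed mice. Their part in the distal shift was not tested. Monocyte and neutrophil markers (8 of 13 genes) summed to 1171 to 1311 at 3 h and 1037 to 1251 at 8 h, and lymphocyte markers (3 of 12) to 675 to 751 and 623 to 714. Stellate cell markers (3 of 10) summed to 234 to 305 and 275 to 292, and bile duct markers (2 of 7) to 73.3 to 99.7 and 80.1 to 83.1.

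Hepatocyte nuclei of other mice, normalized in a table of their own, had peaks at 6 of the 7 sites, and their values stand beside those above with no test between the cell types. There 10.9% of 46827 peaks were called higher and 4.64% lower at 8 h than at 3 h of fasting. The Dbp promoter had a mean of 45.5 normalized reads at 3 h and 25.4 at 8 h (-0.79 ± 0.28, limma adjusted p = 0.0448), and Uspl1 97.0 and 150 (0.62 ± 0.11, adjusted p = 0.000525). The Nr1d1 intron had 92.0 and 111 (0.27 ± 0.12, adjusted p = 0.117). Ccnd1 stood at 0.41 ± 0.25, Banp at 0.52 ± 0.19, the Dbp intron at -0.41 ± 0.27 and the Ciart promoter at 0.02 ± 0.13, none of which passed in fasted mice. In fed mice the Ciart promoter of hepatocytes did pass, at -0.57 ± 0.13 (limma adjusted p = 0.0434). Its difference of the fasted and fed change was not called (adjusted p = 0.0631). The Nr1d1 intron stood at -0.26 ± 0.12 in fed hepatocytes, and it and the other sites named here did not pass there.

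Reads in peaks, recovered from the step of each column, ran from 2557041 to 3913289 in fasted mice at 3 h and from 3137657 to 3893612 at 8 h. The median SE of a fasted log2 fold change was 0.141 and its 95% interval reached 0.284 to either side. For 99.5% of peaks this interval lay within 1 log2 unit of 0. The estimate was 2-fold or more higher at 8 h in 0 peaks and 2-fold or more lower in 3, of which 1, at Rph3al, was called.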

How the data were processed

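Nuclei tagged in macrophages were captured from the livers of 32 mice and their open chromatin was sequenced. The submitters' processing notes name BWA 0.7.5a-r405, SAMtools, HOMER, DESeq2 and mm10, with no roles. The deposited table gives a signal of normalized reads per called peak, 1 column per mouse, which the authors made from technical duplicates per the labels. It lists 30170 peaks of 200 bases, the lowest with a mean of 10.47, so that a filter at a mean of 10 removed 0. Every value of a column is a whole multiple of 1 step to within 0.01 step, taken as 1 read, from which reads in peaks were computed.

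Values were tested as log2(normalized reads + 2) with limma 3.58.1 in R 4.3.3, with a mean per group over all 32 mice, a variance prior with trend, and Benjamini-Hochberg adjustment over all peaks. P-values in limma rest on the spread between mice within a group, pooled over all groups of the 32 mice and drawn toward the variance prior. Promoter means within 1 kb of the TSS that the table names, and lists take peaks within 50 kb. The rule for named peaks was up to 15 passing peaks in each direction without overlap, 1 per gene, and up to 2 passing peaks per list, which all 7 calls meet or share a gene with. As few passed, the fed calls, the 8 next by p, clock peaks, the smallest p of each list and of the difference, and sites of the 24 h mice were added after values were seen. Members and lists were chosen with earlier results of these data known. Alternatives were another offset, filter, scaling and variance prior, the 16 mice alone, the library set as a block or alone, and each mouse left out.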

Additional observations from a re-analysis of the deposited data

Results flagged for a closer look

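Among 172 groups of 4 mice, 4 for the promoter share and the rest at 42 peaks, 4 groups (2.33%) held 1 mouse whose gap to the nearest other mouse, as a share of the group's range, passed Dixon's 95% critical value. Chance gives about 5 in 100 such groups. At the Rph3al peak that passed, the fasted 8 h replicate 4 had 14.547 normalized reads, where the other mice had 10.479 to 10.54. At the Dbp peak 833 bases before the start, the fasted 3 h replicate 1 had 33.978, where the others had 52.844 to 55.871. Dda1, lower at 8 h in fed mice, had 39.153 in the fasted 3 h replicate 2, beside 32.145 to 32.916. Ncoa2, a site chosen at 24 h, had 11.98 in the fasted 8 h replicate 4, beside 6.986 to 7.7292.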

How the results depend on the processing

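Of 1809 values of the 68 named peaks under the alternatives, 1772 kept their direction and 37 reversed, at 14 peaks, none of them among the 7 called in fasted mice. Of called values, 40 lost the threshold, and 69 uncalled ones passed. The first set alone reversed Armc12 (0.26), Chp2 (0.066), Clec4f (0.17), Dynlrb2 (0.12) and Erich5 (0.15). The second reversed Cry2 (-0.002), Ddit4 (-0.25), Ect2 (-0.11), Ly6c2 (0.085), Nrg4 (-0.45), Per1 (0.055) and Spi1 (-0.016). Median centring reversed Chp2 (0.051), Clock (0.047), Ly6c2 (0.011) and Per1 (0.008), and quantile normalization Chp2 (0.061), Clock (0.032) and Cry2 (-0.029). Leaving out a mouse gave ranges across 0 at Chp2 (-0.071 to 0.041), Ly6c2 (-0.134 to 0.016), Per1 (-0.13 to 0.013), Arntl (-0.006 to 0.089), Clock (-0.049 to 0.003), Cry2 (-0.036 to 0.048), Ddit4 (-0.041 to 0.283), Nrg4 (-0.16 to 0.33), Ect2 (-0.15 to 0.18), Clec4f (-0.162 to 0.054) and Spi1 (-0.003 to 0.12). A peak under the filter within a subset of mice has no value there, as Ccl17 in the first set, whose own estimate there was 0.27. Of the 2 higher and 5 lower peaks in fasted mice and the 13 in fed mice, an offset of 8 gave 4 higher and 16 lower, and a mean of at least 30 gave 3 lower. Median centring gave 6 higher and 3 lower, quantile normalization 8 higher and 29 in fed mice, and a constant variance prior 0 higher, 2 lower and 5 in fed mice. The 16 mice alone gave 21 higher, 86 lower, 79 in fed mice and 1 difference of the changes, at 3110070M22Rik (adjusted p = 0.00414, limma). The library set as a block gave 9 higher, 25 lower and 24 in fed mice. The second set alone gave 100 higher, 930 lower, 26 in fed mice and 185 differences. Leaving out each mouse gave 0 to 12 higher, 1 to 39 lower, 1 to 14 in fed mice and 0 to 0 differences. The cause of these moves was not tested. The labels give no replicate numbers that pair mice, so the library set was the only block fitted. The edgeR and DESeq2 alternatives were not run: reads were computed from the step of each column, but a check that looks for the step from the lowest values did not accept them, so they served for depth only. The fed median of the sites opened at 24 h was 0.12, 0.05 with median centring and -0.01 with quantile normalization. Few reads limit peaks such as Rph3al.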
